A study of Mus musculus with 11 samples.

Results

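Chemokine ligand genes were examined in bulk RNA sequencing of CD4+ T cells sorted from mouse kidneys. The set holds 10 genes, *Ccl2*, *Ccl3*, *Ccl4*, *Ccl5*, *Cxcl2*, *Cxcl9*, *Cxcl10*, *Cxcl12*, *Cxcl16* and *Xcl1*, taken by symbol from the 35814 gene symbols of the table, and all 10 were found. Cells came from male C57BL/6 mice of 8 to 12 weeks on day 2 after ischemia–reperfusion injury (IRI) with 45 min of ischemia, and 11 libraries, 1 per mouse, fall into 3 groups. There were 3 CD4cre control mice (labelled WT for the targeted genes), 5 mice labelled CD4IKK1Δ and 3 mice labelled CD4NIKΔ. All 3 groups carry a Cre recombinase under the CD4 promoter and all had the same IRI procedure. Mice labelled CD4IKK1Δ carry in addition a floxed *Chuk*, which encodes IKK1, and those labelled CD4NIKΔ a floxed *Map3k14*, which encodes NIK. The CD4 promoter is active at the double-positive stage of thymic development, so that such a Cre also acts in CD8+ T cells. The cells were enriched with magnetic beads and sorted, and their RNA was amplified before sequencing.

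Chemokines are small secreted proteins that guide leukocytes along gradients by binding G protein-coupled receptors on the responding cell. CXCL9 and CXCL10 bind CXCR3, CCL2 binds CCR2, CXCL2 binds CXCR2, CXCL12 binds CXCR4, CXCL16 binds CXCR6 and XCL1 binds XCR1. NFκB, the transcription factor family downstream of IKK1 and NIK, controls many inflammatory chemokine genes, while interferon-gamma induces the CXCR3 ligands. In the injured kidney, CCL2 and CXCL2 are known for drawing in monocytes and neutrophils.

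Promoter sequences are shown for *Cxcl10* and *Cxcl2*, the members with NFκB matches, and for *Cxcl12*, which had none. RefSeq promoters, from 250 bases before to 50 bases after the start site, were given for 6 of the 10 members (*Ccl3*, *Xcl1*, *Cxcl9*, *Cxcl10*, *Cxcl2* and *Cxcl12*), with sequences of GRCm38.p6, and each matched GRCm39 once, which gave the coordinates below. Capitals mark matches on either strand to the NFκB consensus, to the core of the interferon-stimulated response element (ISRE), to TTCNNNGAA (the GAS element) or to TGANTCA (AP-1). Positions are counted from the start site. The *Cxcl10* promoter lies on the minus strand of GRCm39 at chr5:92496699-92496998, the *Cxcl2* promoter on the plus strand at chr5:91051508-91051807 and the *Cxcl12* promoter on the plus strand at chr6:117145246-117145545, where the start site lies 551 bases inside the gene as GENCODE gives it.
Cxcl10: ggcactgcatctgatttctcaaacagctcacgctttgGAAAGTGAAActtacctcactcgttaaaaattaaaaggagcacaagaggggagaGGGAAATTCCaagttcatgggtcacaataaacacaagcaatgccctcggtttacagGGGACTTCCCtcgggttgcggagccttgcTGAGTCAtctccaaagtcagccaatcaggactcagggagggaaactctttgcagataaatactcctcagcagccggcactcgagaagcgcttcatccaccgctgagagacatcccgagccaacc
Cxcl2: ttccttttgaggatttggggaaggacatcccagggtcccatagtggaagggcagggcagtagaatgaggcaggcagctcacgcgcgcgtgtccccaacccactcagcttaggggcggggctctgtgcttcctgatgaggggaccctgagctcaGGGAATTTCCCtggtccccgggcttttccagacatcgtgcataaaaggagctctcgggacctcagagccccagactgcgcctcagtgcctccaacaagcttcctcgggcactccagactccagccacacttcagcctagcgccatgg
Cxcl12: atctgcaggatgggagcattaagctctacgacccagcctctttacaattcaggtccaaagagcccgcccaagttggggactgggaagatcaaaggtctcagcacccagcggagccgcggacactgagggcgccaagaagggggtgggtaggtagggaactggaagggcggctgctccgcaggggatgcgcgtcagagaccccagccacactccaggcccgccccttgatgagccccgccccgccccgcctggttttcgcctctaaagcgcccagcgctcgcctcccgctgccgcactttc

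The *Cxcl10* window held 2 NFκB matches, from −159 to −150 and from −103 to −94, as well as 1 ISRE match on the minus strand from −213 to −204 and TGANTCA from −74 to −68. In the *Cxcl2* window, the 2 NFκB matches overlapped each other on opposite strands (−97 to −88 and −96 to −87) and thus mark 1 position. *Cxcl12*, *Ccl3* and *Xcl1* held no match to any of the 4 motifs, and *Cxcl9* held TGANTCA from 32 to 38 alone. Of 32851 promoter windows of this length, 4.51% held the NFκB consensus, 3.44% the ISRE core, 8.3% TTCNNNGAA and 7.81% TGANTCA. A match describes letters in this window, and no binding was measured.

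Values are estimated read counts per gene, scaled to a common library size (CPM) with the TMM factors of edgeR. The libraries held from 15751632 to 25737046 estimated counts (median 19030516), so that 3 counts, used as the floor of detection, correspond to between 0.116 and 0.212 CPM. Such floors cover counting error alone, because the RNA was amplified without molecular identifiers. *Chuk* and *Map3k14*, summed over all their transcripts and thus without resolving the floxed exons, did not follow the labels. *Chuk* had 22.03 ± 9.67 CPM (SD, n = 3) in CD4cre libraries and 20.4 ± 4.55 CPM (SD, n = 5) in libraries labelled CD4IKK1Δ, and *Map3k14* had 17.9 ± 2.78 CPM (SD, n = 3) in CD4cre libraries, 22.5 ± 8.98 CPM (SD, n = 3) in those labelled CD4NIKΔ and 5.97 ± 2.81 CPM (SD, n = 5) in those labelled CD4IKK1Δ. T cell markers differed widely between the groups. The summed level of 15 Pan T genes (the CD3 chains, the T cell receptor constant regions and T cell signalling genes) ran from 1600 to 3063 CPM in CD4cre libraries, from 15.2 to 1374 CPM in libraries labelled CD4IKK1Δ and from 8259 to 12320 CPM in libraries labelled CD4NIKΔ. *Cd4* ran from 51.1 to 78.5 CPM, from 2.05 to 69.2 CPM and from 315 to 382 CPM in the same order. CD4IKK1Δ replicates 1 and 2 stood apart, with 41 and 868 counts of *Trac*, *Trbc1* and *Trbc2* against at least 5277 in each of the other libraries, and results of the members that rest on them are also given without them. Against CD4cre, leaving both out kept the direction of all 9 members tested and moved the log2 fold change of *Ccl3* to −2.80, of *Ccl4* to −1.58, of *Ccl5* to −0.58, of *Xcl1* to −1.66, of *Cxcl10* to −1.56, of *Ccl2* to −1.83, of *Cxcl2* to −1.88, of *Cxcl16* to −2.08 and of *Cxcl12* to 0.16, with no member called. In bulk samples, fewer cells of a type and less RNA per cell cannot be told apart. p-values measure the spread between these mice, and the comparisons with CD4cre share the same 3 control libraries.

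**Figure D1:**
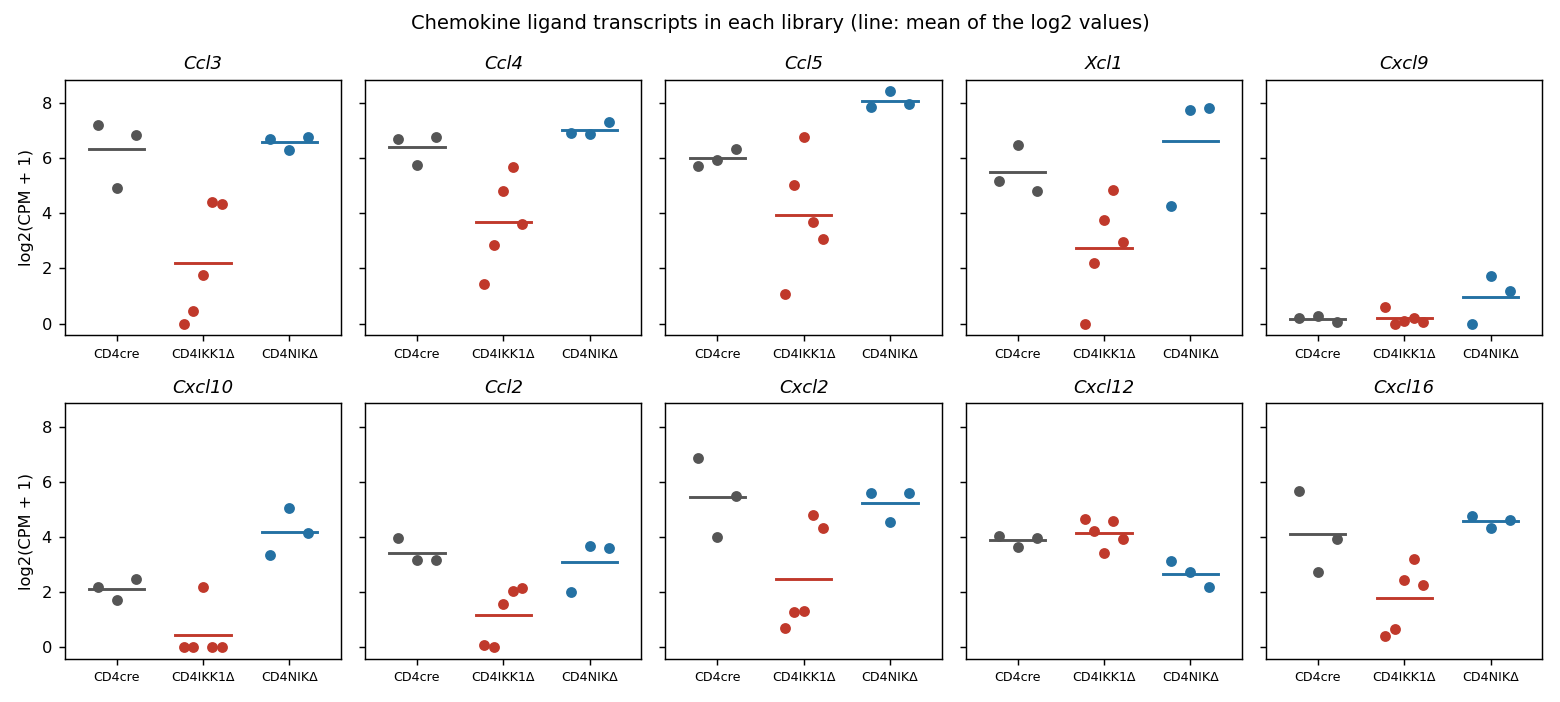
Level of each of the 10 members in each library as log2(CPM + 1), by group, with 1 point per library in the order of the replicate numbers and a line at the mean of the log2 values. Libraries labelled CD4IKK1Δ lie below all CD4cre libraries for *Ccl3*, *Ccl4* and *Ccl2*, libraries labelled CD4NIKΔ lie above all CD4cre libraries for *Ccl4*, *Ccl5* and *Cxcl10*, and *Cxcl12* is lowest in libraries labelled CD4NIKΔ.

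Levels of different genes were set side by side per kilobase of exon. In CD4cre libraries, the chemokines of activated effector T cells stood highest: *Ccl4* had 127 ± 44.0 CPM per kilobase, *Ccl3* 124 ± 78.1, *Xcl1* 94.9 ± 62.3 and *Ccl5* 61.95 ± 14.5 CPM per kilobase (SD, n = 3). *Cxcl2* followed with 28.1 ± 25.2 CPM per kilobase, and its range of 7.24 to 56.1 CPM per kilobase reached into those of *Xcl1*, *Ccl5* and *Ccl3*, so that these neighbours were not separated beyond their spread. *Ccl2* (8.90 ± 3.33), *Cxcl16* (4.51 ± 4.56), *Cxcl12* (1.66 ± 0.251) and *Cxcl10* (1.52 ± 0.516 CPM per kilobase) had lower means, although the ranges of *Ccl2* and *Cxcl16* overlapped each other and that of *Cxcl2*, and *Cxcl12* and *Cxcl10* differed by less than their spread. *Cxcl9* was lowest, with 0.0439 ± 0.0246 CPM per kilobase. In libraries labelled CD4NIKΔ, the order began with *Xcl1* (291 ± 222) and *Ccl5* (266 ± 58.0), ahead of *Ccl4* (189 ± 34.7) and *Ccl3* (123 ± 20.4 CPM per kilobase, SD, n = 3), although the range of *Xcl1* (34.9 to 434 CPM per kilobase) held the means of the other 3. In libraries labelled CD4IKK1Δ, *Ccl5* (31.3 ± 43.1), *Ccl4* (27.9 ± 28.4), *Xcl1* (19.4 ± 20.7) and *Ccl3* (10.8 ± 13.2 CPM per kilobase, SD, n = 5) overlapped one another, and *Cxcl12* (2.12 ± 0.731) was above *Ccl2* (1.51 ± 1.43 CPM per kilobase) by less than the spread.

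The first question was whether chemokine transcripts differ between CD4cre mice and each of the knockouts, and the second whether the knockouts differ from each other. A gene was called when the FDR from edgeR's quasi-likelihood test with Benjamini-Hochberg adjustment was under 0.05 and the difference more than 2-fold. *Cxcl9* had too few counts for any of the 3 comparisons, so that 9 of the 10 members were tested. Against CD4cre, no member was called in libraries labelled CD4IKK1Δ, where 0% of 15653 genes were called higher and 0% lower, and the lowest FDR over all genes was 0.0543. At an unadjusted p under 0.05 stood 3 of the 9 members, *Ccl4*, *Ccl2* and *Cxcl16*, beside 2592 of the 15653 genes (16.6%). DESeq2 called 552 genes and 1 member, *Cxcl16*, and 4.41% of the genes it gave an adjusted p were called lower. The median log2 fold change of the 9 members was −2.29, beside 0.02 over all genes tested, and 8 of the 9 were below 0. In 3 members, *Ccl3*, *Ccl4* and *Ccl2*, every library labelled CD4IKK1Δ was below every CD4cre library, as was the case for 8.44% of all genes, while 5.99% of all genes and no member lay above without overlap.

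In libraries labelled CD4NIKΔ, *Ccl5* and *Cxcl10* rose against CD4cre and no member was called lower, where 10.4% of 15209 genes were called higher and 6.99% lower. The median of the 9 members was −0.02, as it was over all genes (−0.02). The groups did not overlap for 3 members above (*Ccl4*, *Ccl5* and *Cxcl10*; 23.0% of all genes) and 1 below (*Cxcl12*; 22.1%). Set against each other in a fit of all 11 libraries, libraries labelled CD4IKK1Δ were lower than those labelled CD4NIKΔ for 5 called members, *Ccl4*, *Ccl5*, *Xcl1*, *Cxcl10* and *Cxcl16*, and higher for *Cxcl12*, where 18.5% of 16546 genes were called lower and 14.8% higher. The median of the members was −2.76, beside 0.06 over all genes. The groups did not overlap for 5 members below (*Ccl3*, *Ccl4*, *Ccl5*, *Cxcl10* and *Cxcl16*; 24.6% of all genes) and for *Cxcl12* above (20.5%). Scaled to the Pan T markers instead of the whole library, the median of all genes shifted to 5.00, −2.20 and 7.17 in the 3 comparisons, and 0, 6 and 1 members were called. The directions given here are thus relative to the total counts of the library.

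**Figure D2:**
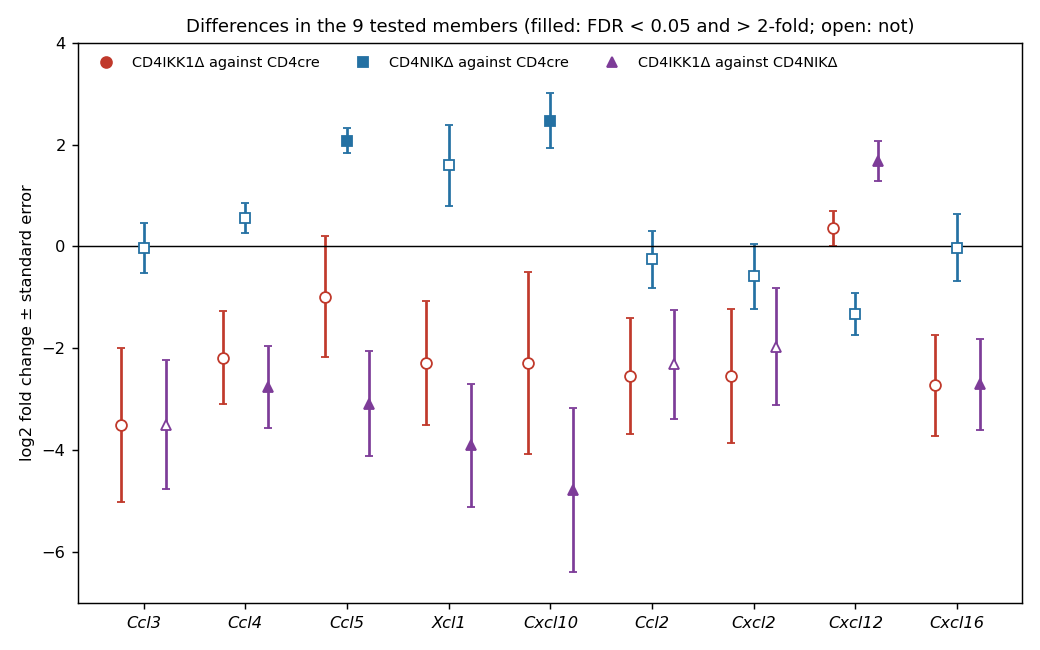
Log2 fold change with its standard error for the 9 tested members in the 3 comparisons, relative to total counts of the library. Filled symbols mark members past an FDR of 0.05 and a 2-fold difference, which were 0 members for CD4IKK1Δ against CD4cre, 2 for CD4NIKΔ against CD4cre and 6 for CD4IKK1Δ against CD4NIKΔ.

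Of the chemokines of effector T cells, *Ccl5*, which encodes RANTES, was higher in the libraries labelled CD4NIKΔ than in both other groups. It lies on chromosome 11 of GRCm39 from 83416602 to 83425942, with a lncRNA on the opposite strand. *Ccl5* had 51.4, 59.2 and 80.2 CPM in CD4cre libraries, 1.09, 31.5, 109, 11.9 and 7.42 CPM in libraries labelled CD4IKK1Δ and 230, 341 and 248 CPM in those labelled CD4NIKΔ, in the order of the replicate numbers. All 3 libraries labelled CD4NIKΔ were above all others, whereas CD4IKK1Δ replicate 3 was above every CD4cre library and the other 4 were below. Against CD4cre, *Ccl5* rose in libraries labelled CD4NIKΔ (log2 fold change 2.08, standard error 0.25, FDR 0.00329), with an FDR from 0.00252 to 0.0200 when each of the 6 libraries was left out in turn. This call was not made with all 11 libraries in edgeR or DESeq2, and relative to the Pan T markers the log2 fold change was −0.20 (FDR 0.691), so that the direction turned with the scaling. Against libraries labelled CD4NIKΔ, those labelled CD4IKK1Δ were lower (−3.09, standard error 1.03, FDR 0.0367), a call lost without CD4IKK1Δ replicate 2, 4 or 5 or any library labelled CD4NIKΔ, with an FDR of up to 0.0989. Without CD4IKK1Δ replicates 1 and 2 the log2 fold change was −2.67 and still called. Against CD4cre the log2 fold change of libraries labelled CD4IKK1Δ was −0.99 (standard error 1.19, FDR 0.768), and left-out libraries moved it between −2.29 and −0.68.

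*Ccl3* and *Ccl4*, which encode the macrophage inflammatory proteins MIP-1α and MIP-1β, lie next to each other on chromosome 11 (83538670 to 83540191 and 83553383 to 83555509). *Ccl3* had 147, 29.2 and 113 CPM in CD4cre libraries, 0, 0.367, 2.38, 20.05 and 18.97 CPM in libraries labelled CD4IKK1Δ and 102, 77.5 and 107 CPM in those labelled CD4NIKΔ. Every library labelled CD4IKK1Δ was below every other library, and CD4IKK1Δ replicates 4 and 5 stood closest to the lowest CD4cre library. The log2 fold change against CD4cre was −3.51 (standard error 1.51, FDR 0.312) for libraries labelled CD4IKK1Δ and −0.03 (standard error 0.49, FDR 0.976) for those labelled CD4NIKΔ. Between the knockouts it was −3.50 (standard error 1.27, FDR 0.0507), which missed the threshold. *Ccl4* had 101, 52.7 and 108 CPM in CD4cre libraries, 1.73, 6.24, 27.0, 49.6 and 11.1 CPM in libraries labelled CD4IKK1Δ and 118, 115 and 158 CPM in those labelled CD4NIKΔ. The 3 groups did not overlap for *Ccl4*, with CD4IKK1Δ lowest and CD4NIKΔ highest, although CD4IKK1Δ replicate 4 came close to CD4cre replicate 2. Against CD4cre, neither difference was called, with −2.19 (standard error 0.91, FDR 0.295) for CD4IKK1Δ and 0.55 (standard error 0.29, FDR 0.206) for CD4NIKΔ. *Ccl4* was lower in libraries labelled CD4IKK1Δ than in those labelled CD4NIKΔ (−2.76, standard error 0.81, FDR 0.0203), a call kept in 7 of 8 fits with a library left out and lost without CD4NIKΔ replicate 3 (FDR 0.0708). Without CD4IKK1Δ replicates 1 and 2, *Ccl4* was at −2.14 (FDR 0.00633) and *Ccl3* at −2.78 (FDR 0.0139), which called *Ccl3* as well. Relative to the Pan T markers, this difference had the other sign (2.10, FDR 0.226), as had *Ccl3* (0.58, FDR 0.732).

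*Xcl1* encodes lymphotactin, which attracts XCR1-bearing dendritic cells, and lies on chromosome 1 from 164759213 to 164763096 with a lncRNA on the opposite strand. It had 34.6, 86.95 and 27.3 CPM in CD4cre libraries, 0, 3.62, 12.6, 27.6 and 6.83 CPM in libraries labelled CD4IKK1Δ and 18.2, 212 and 227 CPM in those labelled CD4NIKΔ. CD4NIKΔ replicates 2 and 3 were above all other libraries, while CD4NIKΔ replicate 1 lay below the 3 CD4cre libraries. The log2 fold change against CD4cre was −2.29 (standard error 1.21, FDR 0.404) for CD4IKK1Δ and 1.59 (standard error 0.80, FDR 0.185) for CD4NIKΔ, and without CD4NIKΔ replicate 1 the latter was 2.15 with an FDR of 0.0162. Between the knockouts *Xcl1* was lower in libraries labelled CD4IKK1Δ (−3.91, standard error 1.21, FDR 0.0270), although the groups overlapped and the call was lost without CD4IKK1Δ replicate 5, CD4NIKΔ replicate 2 or CD4NIKΔ replicate 3. Without CD4IKK1Δ replicates 1 and 2 it was −3.27 and called. Relative to the Pan T markers the log2 fold change was 0.44 (FDR 0.797).

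Other cytotoxic lymphocytes also make these chemokines, and their markers differed between the groups in the order of the means of *Ccl4*, *Ccl5* and *Xcl1*. For *Ccl3*, the means were close in CD4cre libraries (96.3 ± 60.6 CPM, SD, n = 3) and those labelled CD4NIKΔ (95.6 ± 15.8 CPM, SD, n = 3). The summed level of 8 genes of CD8+ T and NK cells ran from 111 to 207 CPM in CD4cre libraries, from 2.31 to 165 CPM in libraries labelled CD4IKK1Δ (highest in replicate 3) and from 951 to 1351 CPM in those labelled CD4NIKΔ. Most of it came from *Nkg7*, which reached 1190 CPM and which activated CD4+ T cells also express, whereas *Cd8a* reached 5.90 CPM and was at 0 in 3 libraries and *Ncr1*, an NK cell receptor, was at 0 in 9 of 11. Of the other markers, *Gzma* reached 127 CPM, *Klrk1* 59.85 CPM, *Klrb1c* 54.1 CPM, *Cd8b1* 19.8 CPM and *Eomes* 4.46 CPM. The bead enrichment and sort for CD4+ T cells are meant to remove CD8+ T and NK cells. Their part in the result was not tested.

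Counts were also set against T cell RNA, as counts per 1000 counts of *Trac*, *Trbc1* and *Trbc2*. On this scale *Ccl5* had 37.3, 53.6 and 128 in CD4cre libraries, 415, 692, 168, 45.5 and 29.2 in libraries labelled CD4IKK1Δ and 68.7, 62.2 and 38.9 in those labelled CD4NIKΔ. The CD4NIKΔ values fell within the range of the CD4cre values, unlike on the CPM scale, and CD4IKK1Δ replicates 1 to 3 were above every other library. *Ccl4* had 73.6, 47.7 and 172 in CD4cre libraries, 659, 137, 41.7, 190 and 43.8 in libraries labelled CD4IKK1Δ and 35.1, 20.96 and 24.8 in those labelled CD4NIKΔ. *Ccl3* had 107, 26.4 and 179, then 0, 8.07, 3.68, 76.6 and 74.8, and then 30.4, 14.1 and 16.8 in the same order. The libraries labelled CD4NIKΔ were thus below all others for *Ccl4*, and CD4IKK1Δ replicates 1 to 3 were below all others for *Ccl3*. *Xcl1* had 25.1, 78.7 and 43.4, then 0, 79.5, 19.5, 105 and 26.9, and then 5.44, 38.6 and 35.6, and the 3 groups overlapped. CD4IKK1Δ replicate 1 held only 41 receptor counts, so that its 27 *Ccl4* counts and 17 *Ccl5* counts alone gave its high values.

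**Figure D3:**
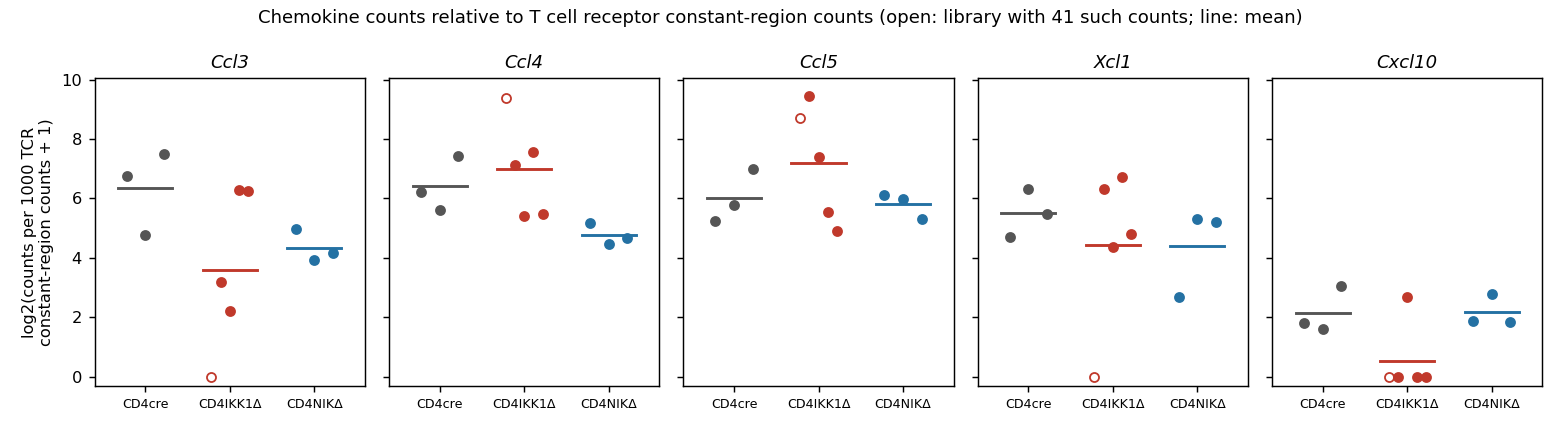
Estimated counts of 5 members per 1000 counts of *Trac*, *Trbc1* and *Trbc2* in each library, as log2(value + 1), with a line at the mean of the log2 values and an open circle for CD4IKK1Δ replicate 1, which held 41 such counts. For *Ccl5* the CD4NIKΔ libraries (38.9 to 68.7) lie within the range of the CD4cre libraries (37.3 to 128), and for *Ccl4* they lie below (20.96 to 35.1 against 47.7 to 172).

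The effector chemokines did not move as one among the libraries labelled CD4IKK1Δ. Replicate 3 had 1914 counts of *Ccl5* and 42 of *Ccl3*, whereas replicate 4 had 240 and 404 and replicate 5 had 165 and 422 counts. Replicate 3 was also the library of this group with the highest *Cd4* (69.2 CPM) and cytotoxic markers. Replicate 4 was highest for *Ccl4* and *Xcl1* among these 5 libraries, with 49.6 and 27.6 CPM. CD4cre libraries had 1336, 1218 and 1603 counts of *Ccl5* with 3820, 600 and 2251 of *Ccl3*.

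Of the interferon-inducible ligands of CXCR3, *Cxcl10* rose in libraries labelled CD4NIKΔ. It lies on chromosome 5 from 92494497 to 92496748, inside the span of *Art3* on the opposite strand, and its promoter is the one shown above with both NFκB and ISRE matches. *Cxcl10* had 3.50, 2.24 and 4.56 CPM in CD4cre libraries, 0, 0, 3.52, 0 and 0 CPM in libraries labelled CD4IKK1Δ and 9.04, 32.2 and 16.7 CPM in those labelled CD4NIKΔ. Every library labelled CD4NIKΔ was above every other library, and CD4IKK1Δ replicate 3, with 62 counts, lay within the CD4cre range while the other 4 of its group had none, at floors from 0.135 to 0.192 CPM. Against CD4cre the log2 fold change in libraries labelled CD4NIKΔ was 2.46 (standard error 0.54, FDR 0.0208). The call was lost without CD4cre replicate 2 or 3 or CD4NIKΔ replicate 2 or 3 (FDR up to 0.0849), and with all 11 libraries in the fit. For libraries labelled CD4IKK1Δ it was −2.28 (standard error 1.79, FDR 0.586). Without CD4IKK1Δ replicate 3 the group had no counts, and the log2 fold change was −9.14 (FDR 0.0733). *Cxcl10* was lower in libraries labelled CD4IKK1Δ than in those labelled CD4NIKΔ (−4.78, standard error 1.61, FDR 0.0340), a call lost without any 1 of the 3 libraries labelled CD4NIKΔ and without CD4IKK1Δ replicates 1 and 2 together (−4.05). It was also not made by DESeq2 (adjusted p 0.0579 with all 11 libraries), in edgeR with only the 8 libraries compared (FDR 0.0650) or with 1 count in any library as the filter (FDR 0.0708). Per 1000 receptor counts, *Cxcl10* had 2.54, 2.02 and 7.25 in CD4cre libraries and 2.69, 5.87 and 2.62 in those labelled CD4NIKΔ, which overlapped.

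*Cxcl9*, the neighbouring CXCR3 ligand on chromosome 5 (92469206 to 92475945), was barely detected. It had 4, 4 and 1 counts in CD4cre libraries, 8, 0, 1, 3 and 1 in libraries labelled CD4IKK1Δ and 0, 46 and 18 in those labelled CD4NIKΔ. It was at or under 3 counts in 6 of 11 libraries, and the only libraries with more than 8 counts were CD4NIKΔ replicates 2 and 3, which also had the most *Cxcl10*. Values of *Cxcl9* were not whole in 9 libraries and those of *Cxcl10* in 7, which means that some reads were shared with other transcripts.

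*Ifng*, which encodes interferon-gamma, and its signalling genes are given for comparison. *Ifng* had 364, 135 and 110 CPM in CD4cre libraries, 0, 1.99, 32.4, 35.5 and 53.1 CPM in libraries labelled CD4IKK1Δ and 887, 768 and 1067 CPM in those labelled CD4NIKΔ, without overlap. Of the 7 genes of this list, 4 of 6 tested rose in libraries labelled CD4NIKΔ against CD4cre (10.4% of all genes), among them *Ifng* (2.15, FDR 0.0165), *Ifngr1* (1.63, FDR 0.0141), which encodes a chain of its receptor, and the kinase gene *Jak1* (1.59, FDR 0.0272). *Irf1* missed the threshold (2.30, FDR 0.0587), and *Jak2* did not pass the count filter. *Ifngr2* was lower (−0.65, FDR 0.0381) without overlap, but by less than 2-fold. The 15 Pan T genes had a median log2 fold change of 2.00 in this comparison, and 12 of them were called higher. Between the knockouts, 5 of the 7 were lower in libraries labelled CD4IKK1Δ (18.5% of all genes), among them *Ifng* (−5.20), *Ifngr1* (−4.12), *Jak1* (−2.71) and *Irf1* (−4.40). *Ifngr2* was higher (0.73, FDR 0.00106) without overlap, but by less than 2-fold, and *Jak2* was at 0.23 (FDR 0.936). The Pan T genes had a median of −4.07 here, with 14 of 15 called lower. The part of T cell RNA in these differences was not tested. Against CD4cre, 0 of the 7 were called in libraries labelled CD4IKK1Δ.

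Of the chemokines that recruit myeloid cells, neither *Ccl2* nor *Cxcl2* was called in any of the 3 comparisons as tested, although with the replicate number as a block both were called lower in libraries labelled CD4IKK1Δ than in those labelled CD4NIKΔ (FDR 0.0453 and 0.00339). Replicate numbers 4 and 5 exist only among libraries labelled CD4IKK1Δ. With the block, that comparison thus rests on CD4IKK1Δ replicates 1 to 3, the lowest of all libraries for *Cxcl2*. Scaled to the Pan T markers, where the median of all genes moved to −2.20, both were called lower in libraries labelled CD4NIKΔ than in CD4cre libraries (*Ccl2* −2.47, FDR 0.00230, and *Cxcl2* −2.62, FDR 0.00251). *Ccl2*, which encodes the monocyte attractant MCP-1 (chromosome 11, 81926397 to 81928279), had 14.5, 7.92 and 7.96 CPM in CD4cre libraries, 0.0640, 0, 1.99, 3.08 and 3.46 CPM in libraries labelled CD4IKK1Δ and 2.96, 11.7 and 11.2 CPM in those labelled CD4NIKΔ. The libraries labelled CD4IKK1Δ were all below CD4cre (−2.55, standard error 1.14, FDR 0.300), and CD4NIKΔ replicate 1 lay among them. The other log2 fold changes were −0.25 for CD4NIKΔ against CD4cre (standard error 0.56, FDR 0.771) and −2.32 between the knockouts (standard error 1.07, FDR 0.103). *Cxcl2*, which encodes the neutrophil attractant MIP-2 (chromosome 5, 91051730 to 91053797), had 116, 14.97 and 43.5 CPM in CD4cre libraries, 0.640, 1.42, 1.48, 26.7 and 19.1 CPM in libraries labelled CD4IKK1Δ and 47.7, 22.4 and 46.9 CPM in those labelled CD4NIKΔ. CD4cre replicate 1 was highest, and CD4IKK1Δ replicates 4 and 5 were above the lowest CD4cre library, while replicates 1 to 3 were below all other libraries. The log2 fold changes of *Cxcl2* were −2.55 for CD4IKK1Δ against CD4cre (standard error 1.32, FDR 0.395), −0.59 for CD4NIKΔ against CD4cre (standard error 0.64, FDR 0.540) and −1.97 between the knockouts (standard error 1.14, FDR 0.199). Without CD4cre replicate 1, the first was −1.55 (FDR 0.784) and the second 0.39 (FDR 0.630).

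The summed level of macrophage and monocyte markers was lowest in the libraries labelled CD4IKK1Δ, as were the means of these members. The summed level of 11 markers was 1758, 457 and 802 CPM in CD4cre libraries, 101, 115, 165, 251 and 145 CPM in libraries labelled CD4IKK1Δ and 1031, 817 and 697 CPM in those labelled CD4NIKΔ. CD4cre replicate 1, the library highest for *Ccl2*, *Ccl3*, *Cxcl2* and *Cxcl16*, was also highest here, and CD4cre replicate 2, lowest of the controls for *Ccl3*, *Cxcl2* and *Cxcl16*, had the lowest sum of the controls. Within the other groups, CD4NIKΔ replicate 1 had the highest sum with the highest *Cxcl2* and *Cxcl16* but the lowest *Ccl2*, and CD4IKK1Δ replicate 4 had the highest sum with the highest *Cxcl2*, *Cxcl16* and *Ccl3*. *C1qb*, a complement gene of tissue macrophages, reached 597 CPM and was above 0 in all 11 libraries, while *Adgre1* and *Itgam* were at 0 in 7 of 11. Not every marker followed the sum. Mean *Cd68* ran the other way, at 19.85 CPM for CD4IKK1Δ, 16.06 CPM for CD4cre and 11.18 CPM for CD4NIKΔ. *Itgam* had means of 0.575, 0 and 0.208 CPM in the same order. The sum also holds *Ccr2*, given below among the receptors. Neutrophil markers reached a summed 5.91 CPM, with *S100a9* and *Ly6g* at 0 in 10 of 11 libraries. The bead enrichment and sort are meant to remove these cells as well. The part of these cells in the results was not tested.

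*Cxcl16* encodes a membrane-bound chemokine that is shed from macrophages and epithelium (chromosome 11, 70344517 to 70352620, overlapping *Med11* and *Zmynd15* on the opposite strand). It had 49.65, 5.64 and 14.0 CPM in CD4cre libraries, 0.320, 0.576, 4.42, 8.24 and 3.78 CPM in libraries labelled CD4IKK1Δ and 26.3, 18.9 and 23.4 CPM in those labelled CD4NIKΔ. CD4IKK1Δ replicate 4 was above CD4cre replicate 2, so that these groups overlapped, whereas all libraries labelled CD4NIKΔ were above all labelled CD4IKK1Δ. Against CD4cre, edgeR gave −2.73 (standard error 0.99, FDR 0.223) for CD4IKK1Δ, where DESeq2 gave an adjusted p of 0.0327, and −0.02 (standard error 0.66, FDR 0.983) for CD4NIKΔ. These values leaned on CD4cre replicate 1, without which edgeR gave −1.49 (FDR 0.670) and 1.20 (FDR 0.113). *Cxcl16* was lower in libraries labelled CD4IKK1Δ than in those labelled CD4NIKΔ (−2.71, standard error 0.89, FDR 0.0293), a call lost without CD4IKK1Δ replicate 5 or any 1 library labelled CD4NIKΔ (FDR up to 0.0737) and turned in sign by scaling to the Pan T markers (1.99, FDR 0.289). Without CD4IKK1Δ replicates 1 and 2 it was −2.05 and called. The strand of counting is not given in the sources used here, so that reads of opposite-strand genes at *Cxcl16*, *Cxcl10*, *Ccl3*, *Ccl5* and *Xcl1* cannot be told apart.

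*Cxcl12*, the homeostatic ligand of CXCR4 and mainly a product of stromal and endothelial cells, was the only member whose mean was lowest in the libraries labelled CD4NIKΔ. It lies on chromosome 6 from 117144945 to 117158328. *Cxcl12* had 15.5, 11.5 and 14.6 CPM in CD4cre libraries, 24.4, 17.6, 9.59, 22.8 and 14.2 CPM in libraries labelled CD4IKK1Δ and 7.64, 5.55 and 3.53 CPM in those labelled CD4NIKΔ. The libraries labelled CD4NIKΔ were below all others, and those labelled CD4IKK1Δ lay around the CD4cre values. *Cxcl12* was higher in libraries labelled CD4IKK1Δ than in those labelled CD4NIKΔ (1.68, standard error 0.39, FDR 0.00451). The call was kept in all 8 fits with a library left out (FDR 0.00230 to 0.0265) and without CD4IKK1Δ replicates 1 and 2 (1.49). Against CD4cre it was −1.33 in libraries labelled CD4NIKΔ (standard error 0.41, FDR 0.0510), just outside the threshold, while DESeq2 gave an adjusted p of 0.00658 and edgeR called it lower with all 11 libraries, with other normalization factors and with other filters. Without the robust setting of edgeR or with the replicate number as a block, *Cxcl12* was not called. Of 6 fits with a library left out, 1 called it (FDR 0.0299 to 0.164). For CD4IKK1Δ against CD4cre it was 0.35 (standard error 0.35, FDR 0.686). Per 1000 receptor counts, *Cxcl12* had 11.3, 10.4 and 23.3 in CD4cre libraries, 9293, 386, 14.8, 87.2 and 56.0 in libraries labelled CD4IKK1Δ and 2.28, 1.01 and 0.554 in those labelled CD4NIKΔ.

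Markers of cells that usually make CXCL12 were low. Fibroblast and pericyte markers summed to between 0.731 and 10.97 CPM over the 11 libraries, with 0.731 to 2.33 CPM (median 1.95) in CD4cre libraries, 0.794 to 10.97 CPM (median 3.35) in those labelled CD4IKK1Δ and 1.51 to 4.23 CPM (median 1.83) in those labelled CD4NIKΔ. The order of these medians was that of *Cxcl12*, although the ranges overlapped, and *Pdgfrb*, which marks pericytes, was at 0 in all 11. *Dcn*, another of these markers, reached 8.09 CPM. Its means were 0.3275 CPM in CD4cre libraries, 2.265 CPM in those labelled CD4IKK1Δ and 1.436 CPM in those labelled CD4NIKΔ. Endothelial markers summed to between 11.4 and 17.6 CPM in libraries labelled CD4IKK1Δ, 17.0 and 23.0 CPM in CD4cre libraries and 25.6 and 56.4 CPM in those labelled CD4NIKΔ. Most of that sum was *Pecam1*, which leukocytes also express, with a mean of 13.5 CPM in CD4cre libraries and 33.5 CPM in those labelled CD4NIKΔ, and *Cdh5* was at 0 in 10 of 11. The part of these cells in the *Cxcl12* result was not tested.

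**Figure D4:**
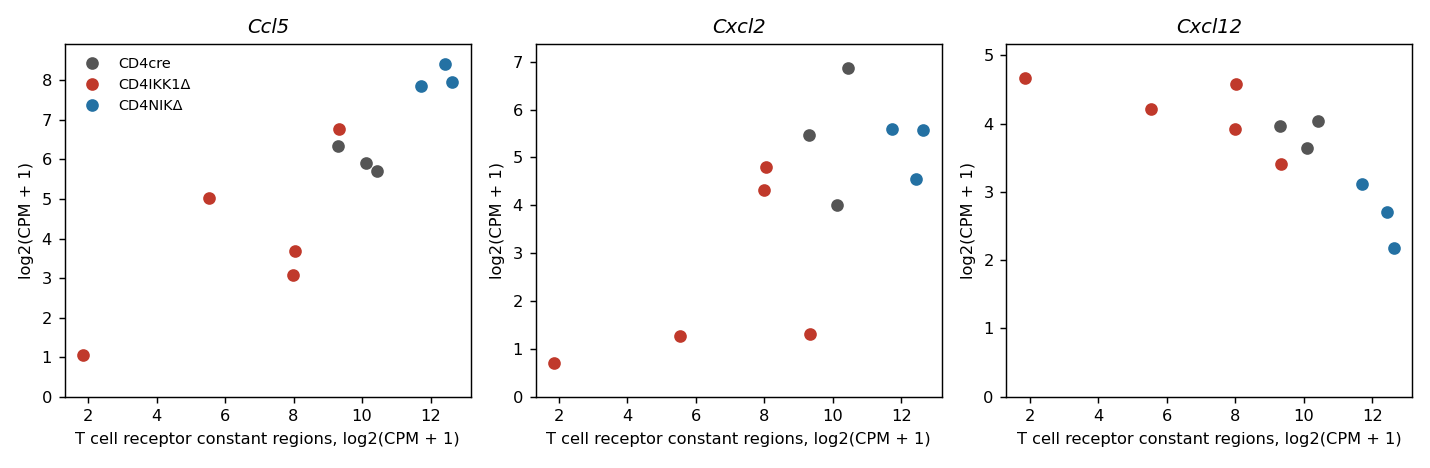
Level of *Ccl5*, *Cxcl2* and *Cxcl12* against the summed level of *Trac*, *Trbc1* and *Trbc2*, both as log2(CPM + 1), with 1 point per library coloured by group. *Ccl5* is highest and *Cxcl12* lowest in the 3 libraries labelled CD4NIKΔ, which hold the most receptor transcripts (3354 to 6367 CPM), while *Cxcl2* is highest in CD4cre replicate 1.

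Receptors of the members were measured in the same libraries. Of 12 receptor genes, 11 were tested between libraries labelled CD4NIKΔ and CD4cre, and 5 rose and 0 fell, where 10.4% of all genes tested rose and 6.99% fell. Among them were *Ccr2* (2.92, FDR 0.00714), *Cxcr3* (3.40, FDR 0.00357), *Cxcr6* (3.71, FDR 0.00550) and *Xcr1* (2.40, FDR 0.0214), the receptors of CCL2, of CXCL9 and CXCL10, of CXCL16 and of XCL1. *Cxcr6* had 85.0, 130 and 29.7 CPM in CD4cre libraries, 0, 3.83, 17.6, 18.1 and 18.7 CPM in libraries labelled CD4IKK1Δ and 1105, 724 and 1402 CPM in those labelled CD4NIKΔ. *Cxcr3* had 83.2, 53.9 and 25.8 CPM, then 0.0640, 0.524, 40.6, 10.7 and 7.10 CPM, and then 431, 621 and 682 CPM in the same order. The libraries labelled CD4NIKΔ were above all others for both receptors, while CD4IKK1Δ replicate 3 reached into the CD4cre range for *Cxcr3* alone of the pair. Relative to the Pan T markers, *Cxcr3* and *Cxcr6* were still called higher, and *Ccr2* and *Xcr1* were not. With all 11 libraries in edgeR, *Ccr2*, *Cxcr3* and *Cxcr6* were not called, and *Cxcr3* was not in DESeq2 with all 11. The *Xcr1* call was lost without CD4cre replicate 3 or CD4NIKΔ replicate 3, and with the replicate number as a block.

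Between the knockouts, 8 of 11 receptors tested were lower in libraries labelled CD4IKK1Δ and 1 was higher, where 18.5% of all genes tested were lower and 14.8% higher. Among the lower ones were *Ccr1*, *Ccr2* (−4.92), *Cxcr3* (−5.61), *Cxcr4* (−4.06), *Cxcr6* (−6.52) and *Xcr1* (−4.14). The *Ccr1* call was lost in both DESeq2 fits and without CD4IKK1Δ replicate 1, 2, 3 or 5 or CD4NIKΔ replicate 1 or 3, and the *Cxcr4* call with only the 8 libraries compared and without CD4IKK1Δ replicate 3 or 4 or any 1 library labelled CD4NIKΔ. With the replicate number as a block, a fit that rests on CD4IKK1Δ replicates 1 to 3, *Ccr2* and *Cxcr3* were not called. A filter of 10 counts in every library took these 6 out of the test, since each was under 10 counts in a library labelled CD4IKK1Δ. Without CD4IKK1Δ replicates 1 and 2 together, *Ccr1* alone of the 8 lower receptors was not called. *Ccr1* was at 0 in 4 of 5 libraries labelled CD4IKK1Δ, and *Ccr3*, also among the 8, was at 0 in all 5 and had between 0.837 and 1.62 CPM in those labelled CD4NIKΔ. *Ackr1*, a decoy receptor of endothelium and red cells, was higher (1.37, FDR 0.00509). Against CD4cre, 0 of 10 tested receptors were called in libraries labelled CD4IKK1Δ. Relative to the Pan T markers, none of *Ccr1*, *Ccr2*, *Ccr3*, *Cxcr3*, *Cxcr4*, *Cxcr6* and *Xcr1* was called between the knockouts, and *Ackr1* was still higher in libraries labelled CD4IKK1Δ.

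**Figure D5:**
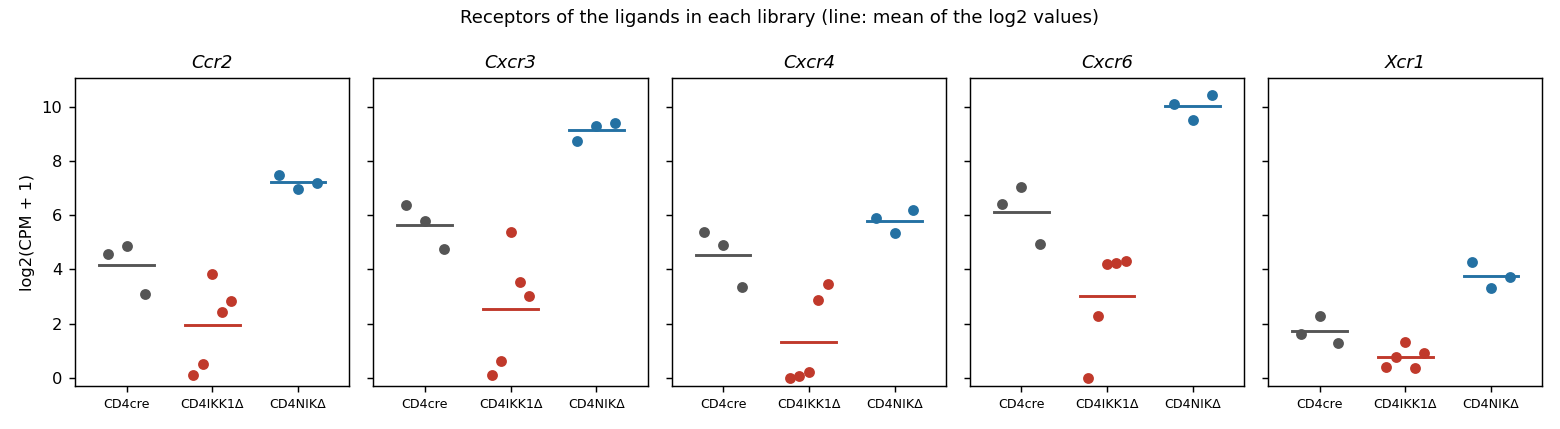
Level of 5 chemokine receptors in each library as log2(CPM + 1), by group, with a line at the mean of the log2 values. For all 5, the 3 libraries labelled CD4NIKΔ lie above all libraries labelled CD4IKK1Δ, and for *Cxcr4* CD4NIKΔ replicate 2 (39.3 CPM) lies just below CD4cre replicate 1 (40.3 CPM).

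Another 27 chemokine ligand genes were examined beside the members, of which 16, 16 and 18 were tested in the 3 comparisons. Those with the most CPM over the 11 libraries, not corrected for length, were *Cx3cl1*, which encodes fractalkine, *Ccl27a* and *Ccl25*. *Cx3cl1* had 274, 341 and 359 CPM in CD4cre libraries, 418, 446, 360, 418 and 302 CPM in libraries labelled CD4IKK1Δ and 195, 116 and 93.0 CPM in those labelled CD4NIKΔ, where it fell against CD4cre (−1.29, FDR 0.0226). *Ccl27a* fell likewise (−1.11, FDR 0.0192), from between 96.9 and 116 CPM to between 38.6 and 63.7 CPM. Both calls were lost without CD4cre replicate 2 or 3 or CD4NIKΔ replicate 2 or 3, and with the replicate number as a block. *Ccl25*, a thymic and intestinal homing chemokine, had 15.3 to 23.5 CPM in libraries labelled CD4NIKΔ and 22.9 to 36.3 CPM in CD4cre libraries (−0.60, FDR 0.201). For *Cx3cl1* and *Ccl27a*, as for *Cxcl12*, every library labelled CD4NIKΔ was below every other library. Between the knockouts, *Cx3cl1* (1.54, FDR 0.000296) and *Ccl27a* (1.44, FDR 0.000138) were higher in libraries labelled CD4IKK1Δ, with no library overlapping.

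Lower in libraries labelled CD4IKK1Δ than in those labelled CD4NIKΔ were *Ccl6* (−3.39, FDR 0.000253) and *Ccl9* (−2.89, FDR 0.00403), both made by myeloid cells, *Ccl20* (−4.77, FDR 0.00440), the ligand of CCR6, and *Cxcl11* (FDR 0.0396), the remaining CXCR3 ligand. The *Cxcl11* call was lost without CD4IKK1Δ replicate 1, 3 or 5, without CD4IKK1Δ replicates 1 and 2 together and without any 1 library labelled CD4NIKΔ. It was also lost with upper-quartile factors, with 1 count in any library as the filter and with the replicate number as a block. *Ccl6* had 28.6, 5.83 and 14.3 CPM in CD4cre libraries, 1.79, 2.78, 3.74, 2.09 and 1.75 CPM in libraries labelled CD4IKK1Δ and 27.8, 14.6 and 34.5 CPM in those labelled CD4NIKΔ, so that CD4IKK1Δ was below both other groups without overlap. *Cxcl11* stayed between 0 and 0.314 CPM in libraries labelled CD4IKK1Δ and between 0.737 and 1.90 CPM in those labelled CD4NIKΔ, close to the floor. Against CD4cre, 0 of the 16 ligands tested were called in libraries labelled CD4IKK1Δ (*Ccl6* −2.74, FDR 0.0844), where DESeq2 called *Ccl6*, *Ccl9* and *Pf4* lower. Relative to the Pan T markers, none of *Ccl6*, *Ccl9*, *Ccl20* and *Cxcl11* was called between the knockouts.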

How the data were processed

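Renal CD4+ T cell RNA was sequenced from 11 mice, 1 library each. The authors trimmed reads with Trimmomatic, quantified transcripts with kallisto (version, annotation and use of strand not given in the sources used here) and deposited estimated counts for 35814 gene symbols without normalization. The methods name GRCm39, while the submitters' processing notes list mm10. Per library, 27.6% to 33.3% of values were not whole (tolerance 0.01), and all were rounded for the tests. None of 55 pairs of libraries were identical. Groups were taken from the genotype labels. Genes were filtered with edgeR's expression filter, normalized by TMM (factors 0.901 to 1.05) and compared by the robust quasi-likelihood test of edgeR with Benjamini-Hochberg adjustment over all genes tested (edgeR 4.0.16, limma 3.58.1, R 4.3.3). Each comparison with CD4cre used its own libraries, and the knockouts were compared in a fit of all 11. Standard errors were taken from the F statistic. The comparisons with CD4cre were also run on simulated counts, with the outcome not reported here.

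The members and lists were chosen with earlier results of these data known. The genes named are all members, the genes of the other ligand, receptor and interferon-gamma lists called in any comparison, the 3 of highest mean CPM per list, and the targeted and receptor constant-region genes. Gene positions and exon lengths came from GENCODE on GRCm39, and promoters from RefSeq. Alternatives were DESeq2 (1.42.0), other normalization, filters and sets of libraries, a replicate block, scaling to Pan T markers and leaving out each library. A fit without CD4IKK1Δ replicates 1 and 2 was added after seeing the data. Reads were not analysed here, and a few genes of the lists are not reported here.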

Additional observations from a re-analysis of the deposited data

Results flagged for a closer look

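Within the libraries labelled CD4IKK1Δ, replicate 3 stood apart for *Cxcl10*: the gap between its 3.52 CPM and the nearest other library took up the whole range of the group (a ratio of 1, past Dixon's critical value for 5 samples), since the other 4 libraries had no counts. With 4 libraries at 0, this ratio is 1 whatever the level of the remaining library. Replicate 3 also had the most T cell receptor constant-region counts of its group (11413). The part of these counts in the result was not tested.

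For 6 members, the difference between the knockouts' changes against CD4cre was past the threshold of edgeR's quasi-likelihood test. It is the comparison of the knockouts given above and not a further test. The difference was −2.76 on the log2 scale for *Ccl4*, −3.09 for *Ccl5*, −3.91 for *Xcl1*, −4.78 for *Cxcl10* and −2.71 for *Cxcl16*, each lower in libraries labelled CD4IKK1Δ than in those labelled CD4NIKΔ, and 1.68 for *Cxcl12*, which was higher. Between the knockouts, the Pan T markers were also lower in libraries labelled CD4IKK1Δ (15.2 to 1374 CPM against 8259 to 12320 CPM), and scaling to those markers moved the median of all genes to 7.17, so that signs under that scaling do not set members apart.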

How the results depend on the processing

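Of the single-gene values, 170 of 175 alternatives kept direction and side of the threshold for CD4IKK1Δ against CD4cre, 112 of 153 for CD4NIKΔ against CD4cre and 129 of 175 between the knockouts. The cause of the changes listed here was not tested, except that left-out libraries and stricter filters hold fewer samples or genes.

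For CD4IKK1Δ against CD4cre, where no member was called, DESeq2 called 1 member with 8 or with all 11 libraries, and leaving out libraries gave 0 to 0. The count of other ligands and receptors called went from 0 to 3 and 5 by DESeq2 and to 1 (*Ccl6*) with all 11 libraries in edgeR, with 1 count in any library or with 10 counts in every library. For CD4NIKΔ against CD4cre, the 2 members called became 3, with *Cxcl12* lower, by DESeq2 with 6 libraries, with RLE, upper-quartile or no factors and with both count filters, 1 (*Cxcl12*) with all 11 libraries in edgeR or DESeq2, 6 (all lower) relative to the Pan T markers, and 1 to 4 with a library left out, with 1 without CD4cre replicate 2 or 3 or CD4NIKΔ replicate 2 or 3 and 4 without CD4NIKΔ replicate 1. The 7 other ligands and receptors became 4 with all 11 libraries in edgeR, 7 in DESeq2 (without *Cxcr3* and *Ccl27a*, with *Ccl17* and *Ccl28* lower) and 14 relative to the Pan T markers. Between the knockouts, the 6 members became 1 relative to the Pan T markers, 2 with 1 count in any library, 3 with 10 counts in every library, 4 with only the 8 libraries compared (without *Ccl5* and *Cxcl10*), and 1 to 7 with a library left out (3, 2 and 1 without CD4NIKΔ replicate 1, 2 and 3). The 15 other ligands and receptors (3 higher, 12 lower) became 6 with 10 counts in every library, and 15 higher and 0 lower relative to the Pan T markers. A filter of 10 counts in every library takes genes near 0 in any library out of the test.

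The replicate numbers of the labels did not pair the samples, with correlations of deviations from −0.0889 to 0.0766 over 9 same-numbered pairs and from −0.0584 to 0.0905 over 18 others. With a replicate block, CD4NIKΔ against CD4cre gave 1 member (*Ccl5*) and 4 other ligands and receptors, and 1185 genes in all in place of 2649. Between the knockouts, the block lost *Ccl5* and *Cxcl10* and added *Ccl2*, *Ccl3* and *Cxcl2*, all lower in libraries labelled CD4IKK1Δ. Replicate numbers 4 and 5 exist only among libraries labelled CD4IKK1Δ, so that with the block comparisons of this group rest on its replicates 1 to 3.

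Relative to the Pan T markers, signs turned for *Ccl4* (0.40), *Ccl5* (1.39) and *Cxcl2* (0.083) in CD4IKK1Δ against CD4cre, for *Ccl4* (−1.71), *Ccl5* (−0.20) and *Xcl1* (−0.67) in CD4NIKΔ against CD4cre, and between the knockouts for *Ccl3* (0.58), *Ccl4* (2.10), *Ccl5* (1.595), *Xcl1* (0.44), *Ccl2* (2.05), *Cxcl2* (2.70) and *Cxcl16* (1.99). This scaling called 10599 genes in place of 2649 for CD4NIKΔ against CD4cre and 14307 in place of 5512 between the knockouts. In CD4NIKΔ against CD4cre, values near 0 also turned. *Ccl3* was at 0.089 by DESeq2 with all libraries, at 0.24 with the block and between −0.44 and 0.41 with a library left out. *Ccl2* lay between −0.50 and 0.18 and *Cxcl2* between −1.02 and 0.39 with a library left out. *Cxcl16* was at 0.0035 and 0.082 by DESeq2 with 6 and 11 libraries, at 0.51 with the block and between −0.47 and 1.20 with a library left out. Over all genes, CD4IKK1Δ against CD4cre gave 0 calls in edgeR, 129 with all 11 libraries, 159 with 10 counts in every library and 552 by DESeq2. *Cxcl9* and, in libraries labelled CD4IKK1Δ, *Cxcl10* lay near the floor of detection, at or under 3 counts in 6 and 4 of 11 libraries.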
